A study of Danio rerio with 13 samples.

Results

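Transcripts of the mitochondrial ribosomal proteins were read in RNA sequencing counts from 13 libraries of zebrafish larvae. Every symbol that begins with mrpl or mrps and a number, and that had a count in at least 3 libraries, was taken. The rule found 74 genes among 32417 entries of the count table, and all 74 passed the filter on low counts and were tested. By their known place in the ribosome, 48 encode proteins of the large subunit and 25 of the small subunit. The last, mrps36, carries the name, but its product belongs to the 2-oxoglutarate dehydrogenase complex of the citric acid cycle. Products of mrps30 and mrps18a sit in the large subunit despite their names and were counted there. Of the 73 subunit genes, 44 have a bacterial counterpart and 29 are specific to mitochondria.

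All libraries came from whole larvae of the line Tg(fli1:EGFP), in which a promoter active in endothelial cells drives EGFP. The groups were untreated wild type (5 libraries), an untreated knockout labelled ALDH3B1 -/- (3 libraries) and wild type treated with 2-HD (5 libraries). What 2-HD stands for, its dose and duration, the age of the larvae, a vehicle group and the number of larvae per library are not in the labels. They also do not state that libraries of 1 group stem from separate clutches or pools, and the p-values given here reflect nothing but the spread among these libraries, possibly a technical one. In whole larvae, fewer cells of a type and less RNA per cell cannot be told apart.

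Mitochondria keep their own ribosome, which makes the few membrane proteins of the respiratory chain and ATP synthase that the mitochondrial genome encodes. Its RNAs come from mitochondrial DNA, whereas all of its proteins are encoded in the nucleus, made on cytosolic ribosomes and imported. The small subunit binds mRNA and reads codons, and the large subunit joins amino acids and holds the exit tunnel. Compared with its bacterial ancestor the mitochondrial ribosome has lost RNA and gained proteins. Inherited defects of single subunits impair oxidative phosphorylation in humans, often in heart, brain or liver.

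Libraries held 17975289 to 19482661 counts, and single members had between 59 and 1356 counts in a library. Levels are in CPM, the counts of a gene relative to the library's total after scaling for composition, and 3 counts correspond to 0.148 to 0.173 CPM. This limit covers counting error only. The targeted gene aldh3b1 was not lower in the libraries labelled knockout by the test used throughout (log2 fold change -0.23, edgeR adjusted p = 0.474), so its transcript is no check of that label. On the log2 scale the pooled spread between libraries of a group had a median of 0.16 over the members. It ranged from 0.08 (mrpl42) to 0.29 (mrps23). The median was also 0.16 over the 12561 tested genes whose mean CPM lies in the range of the members.

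Summed over the 74 genes, the level differed as much between libraries of a group as between groups. In wild type the sum was 1454, 1736, 1540, 1515 and 1476 CPM in replicates 3, 5, 10, 13 and 14. Knockout replicates 2, 3 and 7 had 1654, 1401 and 1364 CPM. With 2-HD, replicates 1 to 5 had 1472, 1511, 1728, 1612 and 1709 CPM. The ranges of all groups overlap, and wild type replicate 5 lies above every other library. The members took 0.135% to 0.179% of all counts.

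One library in each untreated group was high across most of the set. Wild type replicate 5 was the highest of its group for 56 of the 74 genes, and knockout replicate 2 was the highest of its group for 68. At the other end, knockout replicate 7 was the lowest of its group for 45 genes and 2-HD replicate 1 for 41. Among treated libraries the highest value fell in replicate 3 for 31 genes and in replicate 5 for 27. Both subunits showed it: the large-subunit sum was 1107 CPM in wild type replicate 5 and 927 to 991 CPM in the other wild types, and the small-subunit sum 571 CPM against 471 to 499 CPM. The same libraries stood high for proteins of mitochondrial import and folding. Their summed level was 3524 CPM in wild type replicate 5 against 3171 to 3324 CPM in the other wild types, and 3445 CPM in knockout replicate 2 against 3141 and 3238 CPM. Total counts of these libraries (18845611 and 19066393) lay within the range of the series. In knockout replicate 2 the summed exocrine pancreas markers were low, at 1314 CPM against 2328 and 4791 CPM in the other knockout libraries. It was also the lowest knockout for photoreceptor, epidermis, liver, cardiac, erythroid and endothelial markers. For neural, skeletal muscle and proliferation markers it was the highest. Wild type replicate 5 had 2651 CPM of exocrine pancreas markers, within the 1350 to 3256 CPM of the other wild types. It was the highest wild type for endothelial and the lowest for skeletal muscle markers, and lay within their range for the other marker lists. Whether the make-up of a library has a part in these values was not tested.

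**Figure D1:**
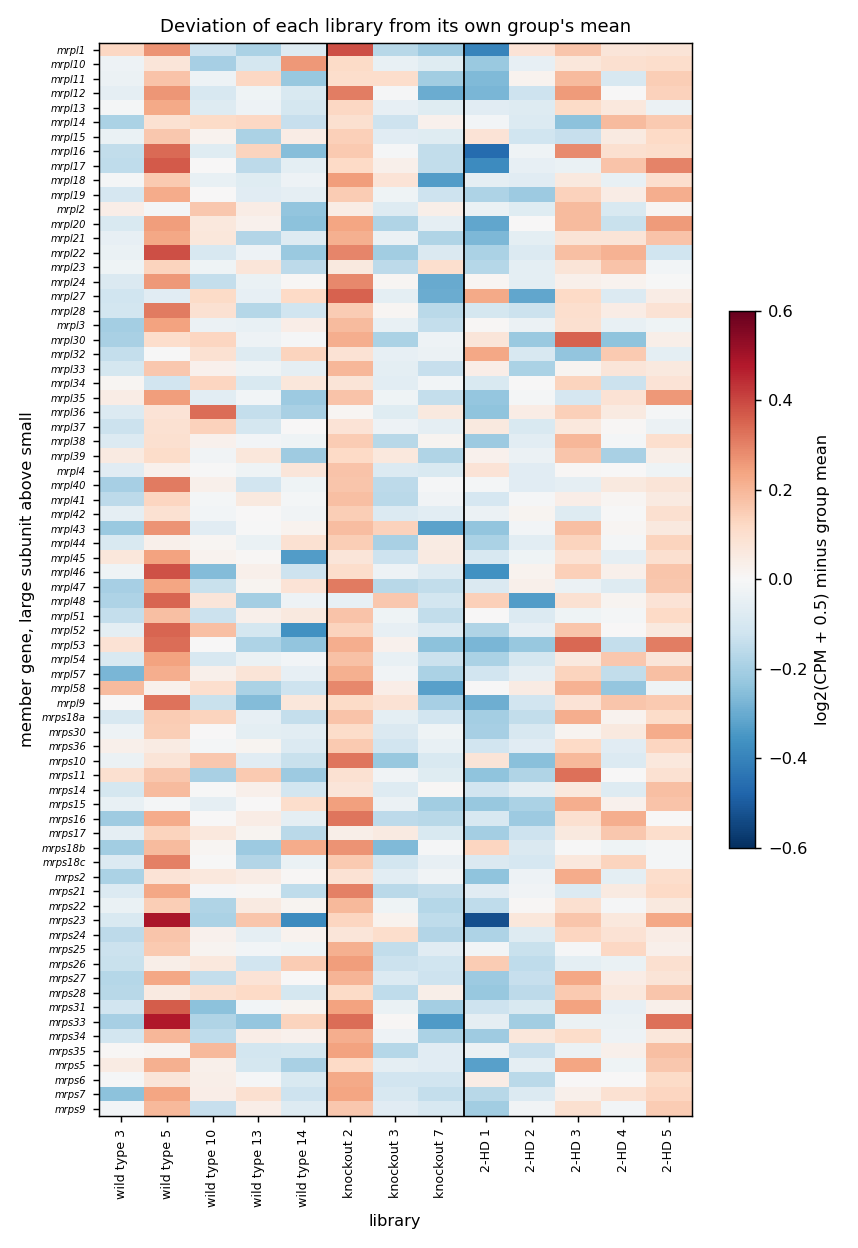
Each cell shows log2(CPM + 0.5) of 1 member gene in 1 library minus the mean of that library's own group, for 74 genes (large subunit, then mrps36, then small subunit) and 13 libraries. The columns of wild type replicate 5 and knockout replicate 2 are red for most genes, being the highest of their groups for 56 and 68 of the 74.

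In larvae treated with 2-HD, 7 of the 74 genes were higher than in untreated wild type, 0 were lower and 67 did not pass the test. The 7 were mrps9, mrpl12, mrpl46, mrps17, mrpl21, mrpl14 and mrps30, and each rose by less than 1.5-fold. A gene counts as called where edgeR's quasi-likelihood test gave an adjusted p under 0.05, with the Benjamini-Hochberg method applied to all 22158 tested genes. In this comparison 22.7% of all tested genes were called higher and 19.7% lower, whereas the members called higher are 9.46%. Members with an unadjusted p under 0.05 numbered 11 higher and 2 lower, or 17.6% against 50.1% of all genes in either direction. DESeq2 called 4 members higher and 0 lower, and 17.5% of all genes higher. For 0 of the 74 genes did the libraries of the groups separate without overlap, against 13.5% of all genes higher and 12.2% lower. The median log2 fold change was 0.07 over the members and 0.02 over all genes. Positive values were found for 48 members (64.9%) and for 52.2% of all genes. Taken without sign, the median log2 fold change was 0.09 over the members and 0.29 over all genes.

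The 7 calls depended on single libraries. Leaving out wild type replicate 14 gave 0 higher, and so did leaving out 2-HD replicate 5. With 2-HD replicate 3 left out the number was 1, and with 2-HD replicate 4 it was 3. Omitting wild type replicates 3, 10 and 13 in turn gave 2, 3 and 4. In contrast, 12 members were higher once wild type replicate 5 was omitted, and 10 once 2-HD replicate 1 was, with mrpl32 then lower. Of all genes, 36.8% to 45.2% were called in either direction in these fits, against 42.4% with all libraries. The share was 40.1% without wild type replicate 14 and 37.6% without 2-HD replicate 5. Tested against a change of 1.2-fold instead of 0, 0 members were called, where 12.4% of all genes were higher and 9.45% lower. Scaled by library totals alone, 16 were called higher, but the median of all genes then lay at 0.12, and 67.1% of all calls were higher instead of 53.5%.

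Intervals were taken gene by gene, not jointly, and reflect only the spread among these libraries. Their standard errors were derived from each fitted change and its test statistic. For 71 of the 74 genes the 95% interval of the 2-HD change lay within 1.5-fold in either direction, and for all 74 within 2-fold. The exceptions at 1.5-fold were mrpl12, mrpl46 and mrpl53, all on the higher side.

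**Figure D2:**
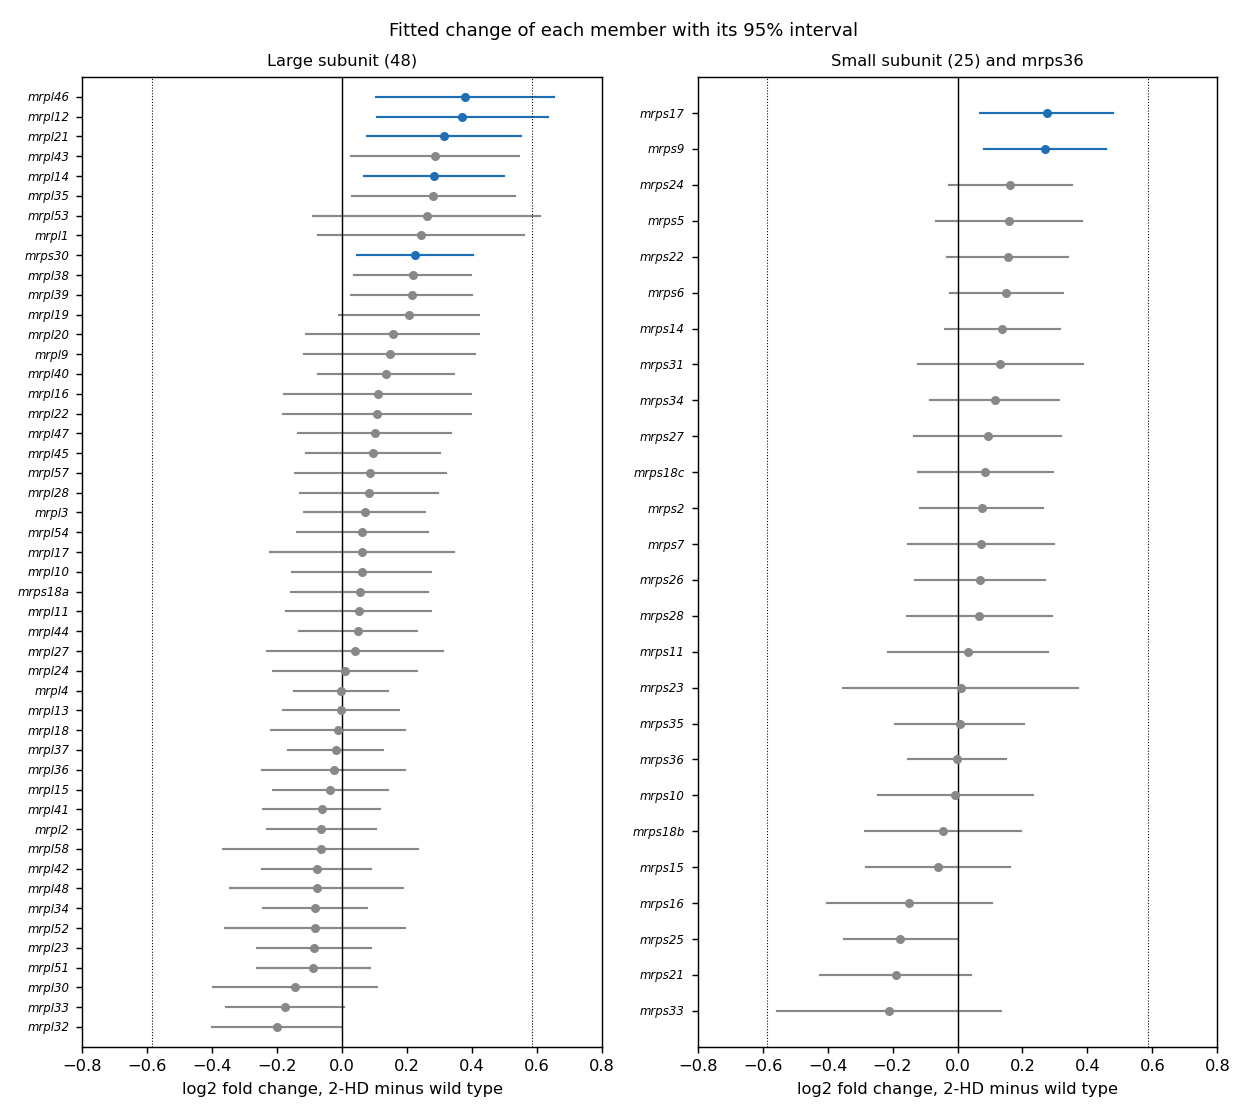
Points show the fitted log2 fold change of each of the 74 genes in 2-HD against wild type (5 libraries each) and lines its 95% interval; blue marks the 7 genes called, and dotted lines mark 1.5-fold. All fitted values lie within 1.5-fold, and 71 intervals do.

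Of the large-subunit genes 5 of 48 were higher (10.4%), and of the small-subunit genes 2 of 25 (8%). By origin, 5 of 44 with a bacterial counterpart rose (11.4%) and 2 of 29 specific to mitochondria (6.9%). Each of these shares is below the 22.7% of all genes.

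The stalk of the large subunit recruits the translation factors that hydrolyse GTP. Its flexible protein is encoded by mrpl12, which in mammals is also known to bind the mitochondrial RNA polymerase. In wild type replicates 3, 5, 10, 13 and 14 mrpl12 stood at 33.6, 42.1, 32.7, 34.3 and 32.8 CPM. With 2-HD, replicates 1 to 5 had 37.1, 41.3, 53.8, 45.1 and 49.5 CPM. All treated libraries lie above 4 of the 5 wild types, and wild type replicate 5 lies among the treated. The log2 fold change was 0.37 (SE 0.12, edgeR adjusted p = 0.0245). Knockout replicates 2, 3 and 7 had 49.3, 39.5 and 32.2 CPM and span both other groups.

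The neighbours of that protein at the stalk base were not called. For mrpl10, which anchors the stalk, the level was 12.2 ± 1.6 CPM in wild type and 12.7 ± 1.2 CPM with 2-HD (SD, n = 5 each). For mrpl11, of the region where factors bind, it was 27.6 ± 3.0 and 28.6 ± 3.7 CPM (SD, n = 5 each). Both changes were small beside the spread, with edgeR adjusted p of 0.665 and 0.724.

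Elsewhere in the large subunit, mrpl46, mrpl21 and mrpl14 were higher with 2-HD. The central protuberance, the crown of the large subunit that faces the small one, includes the product of mrpl46. Its level in wild type was 9.67, 13.0, 8.15, 10.1 and 9.01 CPM in replicates 3, 5, 10, 13 and 14, and with 2-HD 9.91, 13.1, 14.3, 13.2 and 14.5 CPM in replicates 1 to 5. Treated replicates 2 to 5 lie above every wild type, and replicate 1 lies among them. The log2 fold change was 0.38 (SE 0.13, edgeR adjusted p = 0.0274), the largest fitted among the 74. A structural protein that binds the ribosomal RNA is encoded by mrpl21. It had 10.4, 12.7, 11.3, 9.48 and 10.2 CPM in wild type and 11.0, 12.8, 14.1, 14.1 and 15.1 CPM with 2-HD, libraries in the same order. Here too replicates 2 to 5 of the treated group lie above every wild type (log2 fold change 0.31, SE 0.11, edgeR adjusted p = 0.0337). At the face where the subunits meet lies the product of mrpl14. Its wild-type values were 11.8, 14.4, 14.7, 14.8 and 12.2 CPM, and those with 2-HD were 16.2, 15.5, 13.8, 18.8 and 18.4 CPM. In this gene the low treated library is replicate 3, not replicate 1, and the log2 fold change was 0.28 (SE 0.10, edgeR adjusted p = 0.0358).

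The large-subunit gene mrps30, specific to mitochondria, had the smallest of the 7 changes. Wild type replicates 3, 5, 10, 13 and 14 had 22.0, 24.9, 22.5, 21.5 and 21.5 CPM, and 2-HD replicates 1 to 5 had 22.7, 24.4, 26.5, 27.2 and 30.6 CPM. Treated replicates 3 to 5 exceed every wild type, and replicates 1 and 2 do not. The log2 fold change was 0.22 (SE 0.08, edgeR adjusted p = 0.0425).

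In the small subunit, mrps9 and mrps17 were called. The tail of the protein encoded by mrps9 reaches the peptidyl tRNA, and its bacterial counterpart does the same. It had 21.1, 24.5, 19.4, 22.0 and 20.2 CPM in wild type and 22.2, 25.4, 27.6, 25.4 and 28.6 CPM with 2-HD. Treated replicates 2 to 5 exceed every wild type, and replicate 1 does not. Its log2 fold change was 0.27 (SE 0.09), with the smallest edgeR adjusted p of the set, 0.0234. The product of mrps17 binds the small-subunit RNA, as in bacteria. Its levels were 7.69, 8.82, 8.38, 8.08 and 7.10 CPM in wild type and 8.31, 8.82, 10.1, 10.9 and 10.4 CPM with 2-HD. Treated replicate 1 lies within the wild-type range, replicate 2 is level with wild type replicate 5, and the others lie above. The log2 fold change was 0.27 (SE 0.10, edgeR adjusted p = 0.0329). In the RefSeq gene order of assembly GRCz12tu mrps17 overlaps another gene. The build named for the counts is GRCz11 and its annotation is not given, so whether the overlap holds there is unknown. The counting is also not stated to use strand. If the overlap holds, the count of mrps17 may include reads of that neighbour. Such an overlap was found for 23 of the 73 members matched to RefSeq, and for mrps17 alone of the 7 called.

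**Figure D3:**
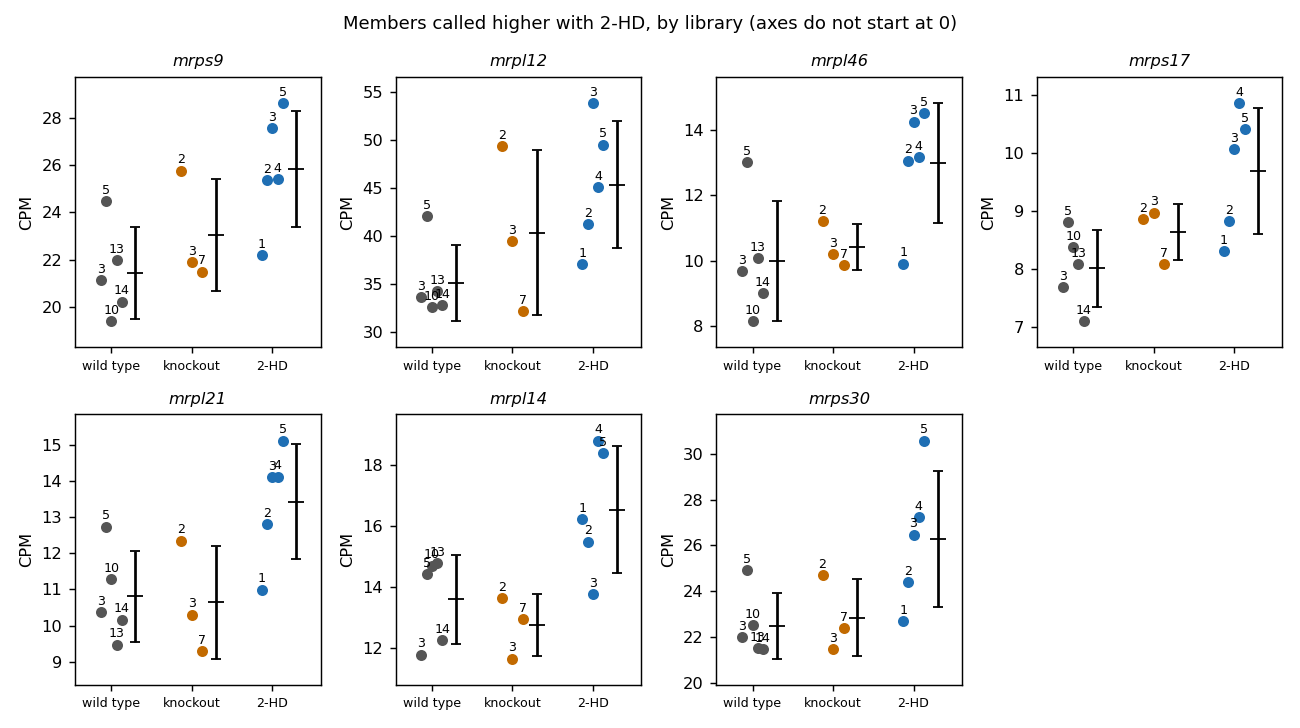
CPM of the 7 members called higher with 2-HD in each of 13 libraries, with replicate numbers beside the points, and the mean with SD at the right of each group (n = 5, 3 and 5). In every panel at least 1 treated library lies within the range of the wild types.

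Genes of the catalytic centre and of the tRNA path of the large subunit were not called. The product of mrpl2 lies close to the peptidyl transferase centre, and its level was 54.2 ± 5.3 CPM in wild type and 51.9 ± 4.3 CPM with 2-HD (SD, n = 5 each, edgeR adjusted p = 0.546). For mrpl3, mutated in an inherited cardiomyopathy of humans, the levels were 27.0 ± 3.2 and 28.3 ± 1.1 CPM (SD, n = 5 each, edgeR adjusted p = 0.554). Near the site of the incoming tRNA lies the product of mrpl16, with 52.1 ± 9.0 and 56.2 ± 10 CPM (SD, n = 5 each, edgeR adjusted p = 0.542). The protein of the L1 stalk, which guides spent tRNA out, is encoded by mrpl1. It had 7.96 ± 1.2 CPM in wild type and 9.42 ± 1.4 CPM with 2-HD (SD, n = 5 each, edgeR adjusted p = 0.203). In that gene 2-HD replicate 1 stood apart with 6.97 CPM, while the rest of the treated libraries had 9.85 to 10.5 CPM.

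Several members that mitochondria added to the large subunit were not called either. The level of mrpl37 was 41.3 ± 3.4 CPM in wild type, 41.4 ± 2.1 CPM in the knockout and 40.7 ± 1.9 CPM with 2-HD (SD, n = 5, 3 and 5), with an edgeR adjusted p of 0.839 for 2-HD. Also altered in an inherited human cardiomyopathy, mrpl44 had 21.3 ± 1.0 CPM in wild type and 22.0 ± 2.1 CPM with 2-HD (SD, n = 5 each, edgeR adjusted p = 0.675). A hydrolase that frees stalled peptides and is built into the large subunit is encoded by mrpl58. It had 5.05 ± 0.60 and 4.83 ± 0.58 CPM (SD, n = 5 each, edgeR adjusted p = 0.740), and at 59 to 113 counts per library it is the most thinly counted member. For mrpl53 the levels were 6.36 ± 1.1 and 7.62 ± 1.7 CPM (SD, n = 5 each, edgeR adjusted p = 0.216), and its interval reached past 1.5-fold.

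Further small-subunit genes with known roles did not pass the test. For mrps2 and mrps5, which line the path of the mRNA, wild-type levels were 22.9 ± 1.7 and 28.8 ± 3.2 CPM, and those with 2-HD 24.1 ± 3.0 and 32.2 ± 4.8 CPM (SD, n = 5 each). Neither was called, with edgeR adjusted p-values of 0.526 and 0.243. In humans, defects of mrps16, mrps22 and mrps34 lower respiratory chain activity. For mrps16 the level was 14.6 ± 1.7 CPM in wild type and 13.2 ± 1.6 CPM with 2-HD, and for mrps22 it was 16.8 ± 1.4 and 18.7 ± 1.2 CPM (SD, n = 5 each, edgeR adjusted p = 0.340 and 0.169). The level of mrps34 was 36.1 ± 3.6 and 39.0 ± 3.4 CPM (SD, n = 5 each, edgeR adjusted p = 0.347).

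Vertebrates have 3 relatives of the bacterial S18 protein. That of mrps18c takes its place in the small subunit and was counted as the bacterial counterpart. Those of mrps18b, in the small subunit, and mrps18a, in the large, occupy other sites and were counted as specific to mitochondria. With 2-HD none of the 3 was called by edgeR. The level of mrps18a was 20.6 ± 2.0 CPM in wild type and 21.4 ± 2.7 CPM with 2-HD, that of mrps18b 20.3 ± 3.0 and 19.7 ± 1.1 CPM, and that of mrps18c 14.5 ± 2.0 and 15.4 ± 1.1 CPM (SD, n = 5 each). Their edgeR adjusted p-values were 0.692, 0.786 and 0.512. Outside the ribosome, mrps36 held 55.8 ± 1.9 CPM in wild type and 55.7 ± 4.6 CPM with 2-HD (SD, n = 5 each, edgeR adjusted p = 0.989).

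A pair of entries whose symbols are written in capitals fell outside the rule. MRPL49 rose from 11.8 ± 2.3 to 15.0 ± 1.1 CPM with 2-HD (SD, n = 5 each, log2 fold change 0.35, SE 0.12, edgeR adjusted p = 0.0324). Wild type replicate 14 was the lowest for it, at 8.20 CPM, and the other wild types had 11.5 to 14.6 CPM. MRPS12, the counterpart of the bacterial protein that guards decoding accuracy, had 24.2 ± 1.4 and 22.5 ± 1.7 CPM (SD, n = 5 each) and was not called (edgeR adjusted p = 0.303).

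In the knockout, 0 of the 74 genes were called higher or lower than in wild type by edgeR or by DESeq2. Of all tested genes 4.1% were called higher and 1.86% lower by edgeR, and 4.92% and 3.71% by DESeq2. At these shares, 74 genes taken from all would on average hold few calls, but more than 0. At an unadjusted p under 0.05, 0 members were higher and 3 lower, or 4.05% of members against 24.8% of all genes in either direction. The libraries of the groups were without overlap for 0 members in either direction, against 7.45% of all genes higher and 8.01% lower. The median log2 fold change was -0.07 over the members and 0.00 over all genes, and 55 members had a negative value. Positive values were found for 25.7% of members and 50.2% of all genes. Without knockout replicates 2, 3 and 7 in turn the members' median was -0.16, -0.02 and -0.02. With a replicate block, which compares only libraries whose number recurs in another group, it was 0.003. Scaled by library totals alone, the members' median was 0.00 and that of all genes 0.07, and 88.4% of all calls were higher instead of 68.8%. The 95% interval lay within 1.5-fold for 70 of the 74 genes and within 2-fold for all 74.

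The 3 members with an unadjusted p under 0.05 were named after their values were seen. One is mrpl41, specific to mitochondria, with 11.1, 13.7, 12.3, 13.0 and 12.4 CPM in wild type replicates 3, 5, 10, 13 and 14. Knockout replicates 2, 3 and 7 had 11.7, 9.12 and 10.1 CPM. Replicate 2 lies within the wild-type range and the other knockouts below it. The log2 fold change was -0.28 (SE 0.10, edgeR adjusted p = 0.0993), and without knockout replicate 2 this gene alone was called lower. The others were mrpl10 (12.2 ± 1.6 against 9.91 ± 0.74 CPM, log2 fold change -0.29, SE 0.12) and mrps34 (36.1 ± 3.6 against 30.5 ± 4.4 CPM, -0.24, SE 0.11; SD, n = 5 and 3), with edgeR adjusted p of 0.142 and 0.188.

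The genes called with 2-HD had small fitted differences in the knockout, all with an edgeR adjusted p of 0.404 or above. Their log2 fold changes against wild type were 0.20 for mrpl12, 0.11 for mrps17, 0.10 for mrps9, 0.06 for mrpl46, 0.02 for mrps30, -0.02 for mrpl21 and -0.09 for mrpl14, with SEs of 0.10 to 0.15. Both comparisons use the same wild-type libraries. Knockout replicate 2 had the highest knockout value for all of them except mrps17.

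Set directly against the 2-HD group, the knockout had 0 members called by edgeR in either direction and 3 called lower by DESeq2. Of all tested genes, edgeR called 3.93% higher and 3.06% lower, and DESeq2 4.71% higher and 3.96% lower. At an unadjusted p under 0.05, 0 members were higher and 13 lower, or 17.6% of members against 25.6% of all genes in either direction. The groups' libraries were without overlap for 3 members lower and 0 higher, against 8.82% of all genes lower and 8.97% higher. The median log2 fold change was -0.14 over the members and -0.02 over all genes, with 59 members negative. Positive values were found for 20.3% of members and 47.6% of all genes. The interval lay within 1.5-fold for 66 of 74 members. Without 2-HD replicate 1 edgeR called 7 members lower, and without wild type replicate 14 and 2-HD replicate 1 it called 6. Of all genes 6.4% and 6.63% were lower in these fits.

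The 3 without overlap, singled out for that, were mrpl14, mrps14 and mrps24. For mrpl14 knockout replicates 2, 3 and 7 had 13.6, 11.6 and 12.9 CPM, below the lowest treated library at 13.8 CPM (log2 fold change -0.38, SE 0.12, edgeR adjusted p = 0.0683). The small-subunit genes mrps14 and mrps24 both have bacterial counterparts. For mrps14 the knockouts had 15.7, 14.1 and 15.0 CPM and 2-HD replicates 1 to 5 had 16.8, 17.5, 19.1, 17.2 and 20.8 CPM (log2 fold change -0.29, SE 0.10, edgeR adjusted p = 0.0782). For mrps24 the values were 16.2, 16.7 and 13.6 CPM against 16.8, 18.1, 21.0, 20.3 and 19.7 CPM (-0.31, SE 0.10, edgeR adjusted p = 0.0813). For mrpl14 and mrps24 the gap between the groups is narrow beside the range within them, and for mrps14 it is smaller than either range.

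Other parts of the same machinery were set beside the ribosomal proteins in the 2-HD comparison. Enzymes that charge mitochondrial tRNAs had 8 of 26 higher and 1 lower, and factors of mitochondrial translation and mRNA stability had 7 of 19 higher and 0 lower. Those are 30.8% and 36.8% of each list, above the 22.7% of all genes, and their median log2 fold changes were both 0.16. The alanine enzyme gene aars2 rose from 8.35 ± 0.96 to 11.8 ± 1.4 CPM (SD, n = 5 each, edgeR adjusted p = 0.00192) with no overlap between the groups. The leucine enzyme gene lars2 rose by 0.76 and the isoleucine enzyme gene iars2 by 0.35 on the log2 scale. Among the factors, lrpprc, which stabilises mitochondrial mRNAs, rose from 81.4 ± 5.7 to 110.9 ± 13 CPM (SD, n = 5 each, edgeR adjusted p = 0.000747). The initiation factor gene mtif2 rose by 0.38 and the elongation factor gene gfm1 by 0.64. Leaving out 1 library at a time gave 4 to 9 higher tRNA enzyme genes and 4 to 8 higher factor genes. Library totals alone gave 13 and 10, where 6569 of all 22158 genes were higher and the median of all genes was 0.12. Against a change of 1.2-fold, 2 genes of each list were higher, where 12.4% of all genes were.

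Genes listed for ribosome assembly were closer to the ribosomal proteins, with 3 of 26 higher, 0 lower and a median of 0.10. The 3 were dhx30, an RNA helicase of the mitochondrial RNA granules (log2 fold change 0.66), pus1 (0.37) and ddx28, a helicase of large-subunit assembly (0.31). Of these, pus1 encodes a pseudouridine synthase and is not specific to ribosome assembly. Of 5 ribosomal proteins with other kinds of symbol, aurkaip1 (0.38) and ptcd3 (0.26), both of the small subunit, rose. Of 13 genes that copy and transcribe mitochondrial DNA, the polymerase genes polrmt (0.38) and polg (0.41) rose and 0 fell. The shares higher were 11.5% of the genes listed for assembly, 40% of the 5 and 15.4% of the 13, against 22.7% of all genes. Without single libraries the counts higher ranged from 1 to 6, from 0 to 2 and from 2 to 4 for these lists.

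Import and folding genes (median 0.19) had 17 of 43 higher (39.5%, against 22.7% of all genes) and 3 lower (6.98%, against 19.7%). They included pmpca, of the peptidase that trims imported proteins (29.4 ± 3.1 to 42.7 ± 5.9 CPM, SD, n = 5 each), and hspd1, the matrix chaperonin (log2 fold change 0.67). Among those that fell was vdac1 (-0.30), a metabolite channel of the outer membrane and not itself an import receptor. The count higher was 7 to 20 when 1 library was left out. Against a change of 1.2-fold it was 2 of 43, where 12.4% of all genes were higher.

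The cytosolic counterparts of these genes fell in most cases. Cytosolic ribosomal protein genes had 0 of 74 higher and 63 lower (85.1%) with 2-HD, with a median log2 fold change of -0.30, and 50 to 65 were lower without single libraries. With library totals alone 43 were lower, beside 3228 of all 22158 genes. Against a change of 1.2-fold 7 were lower, where 9.45% of all genes were. The sum of the cytosolic ribosomal protein genes was 73710 to 87698 CPM in wild type and 63929 to 69908 CPM with 2-HD. Nuclear genes of oxidative phosphorylation had 6 of 99 higher and 14 lower (median -0.07), among the latter cox4i2 (-0.86), a tissue-restricted subunit of cytochrome oxidase. These shares, 6.06% higher and 14.1% lower, are both below the 22.7% and 19.7% of all genes. Scaled by library totals alone the list had 9 higher and 7 lower and a median of 0.03. In that fit 6569 of all 22158 genes were higher and 3228 lower. Of the 13 mRNAs of the mitochondrial genome 2 were higher, 2 lower and 9 neither, with a median of -0.10, and RLE scaling or DESeq2 gave 0 higher and 3 lower. Those that fell were mt-co2 (-0.40) and mt-co3 (-0.25), subunits of cytochrome oxidase, and mt-nd5 (0.19) was among those that rose. Each direction held 15.4% of the 13, below the shares of all genes. In the knockout edgeR called 5 of 74 cytosolic ribosomal protein and 6 of 99 oxidative phosphorylation genes lower. Those are 6.76% and 6.06%, against 1.86% of all genes. These counts were 2 and 3 with library totals alone, where 202 of all 22158 genes were lower. With DESeq2 they were 18 and 19, where 3.71% of all genes were lower. They were 0 and 0 against 1.2-fold, where 0.0135% of all genes were lower. With 2 groups in the fit they were also 0 and 0, and 0.471% of all genes were called in either direction. They ranged from 0 to 12 and from 0 to 14 when single libraries were left out. In those fits 0.0134% to 9.37% of all genes were called in either direction.

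**Figure D4:**
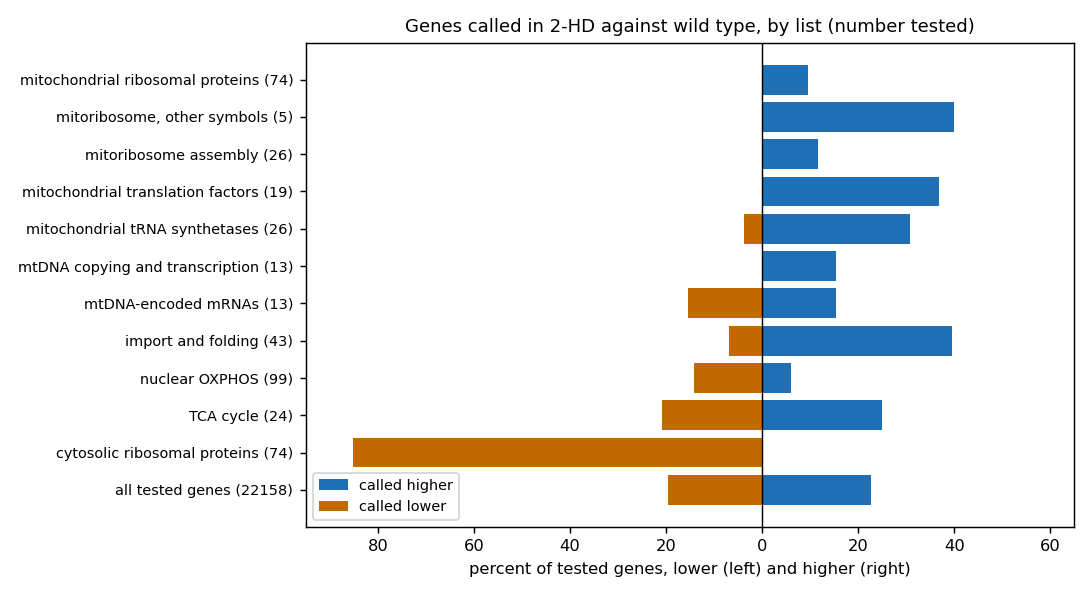
Bars show the percent of tested genes called higher (right) or lower (left) by edgeR in 2-HD against wild type for each list, with all 22158 tested genes at the bottom and the number tested in parentheses. Mitochondrial ribosomal proteins had 9.46% higher and 0% lower, tRNA synthetases 30.8% higher and cytosolic ribosomal proteins 85.1% lower.

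Within each library the balance between transcripts for the proteins of both ribosomes can be read without scaling between libraries. For every 100 CPM of cytosolic ribosomal protein transcripts, the mitochondrial set had 1.96, 2.21, 1.76, 1.81 and 2.00 CPM in wild type replicates 3, 5, 10, 13 and 14. Knockout replicates 2, 3 and 7 had 2.36, 2.06 and 1.87 CPM, and 2-HD replicates 1 to 5 had 2.11, 2.36, 2.69, 2.36 and 2.59 CPM. Treated libraries 2 to 5 lie above every wild type, and replicate 1 lies below wild type replicate 5, so the groups overlap. The knockouts reach from within the wild-type range to within the treated range. Against nuclear oxidative phosphorylation transcripts the ratio overlapped more widely, with wild types at 10.9 to 12.2 CPM per 100 CPM, knockouts at 11.2 to 12.2 and treated libraries at 11.2 to 13.0. Behind the first ratio, the mean sum of the mitochondrial set was 1544 CPM in wild type and 1606 CPM with 2-HD. That of the cytosolic set was 79550 and 66505 CPM. These are descriptions of the sums, with no test.

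**Figure D5:**
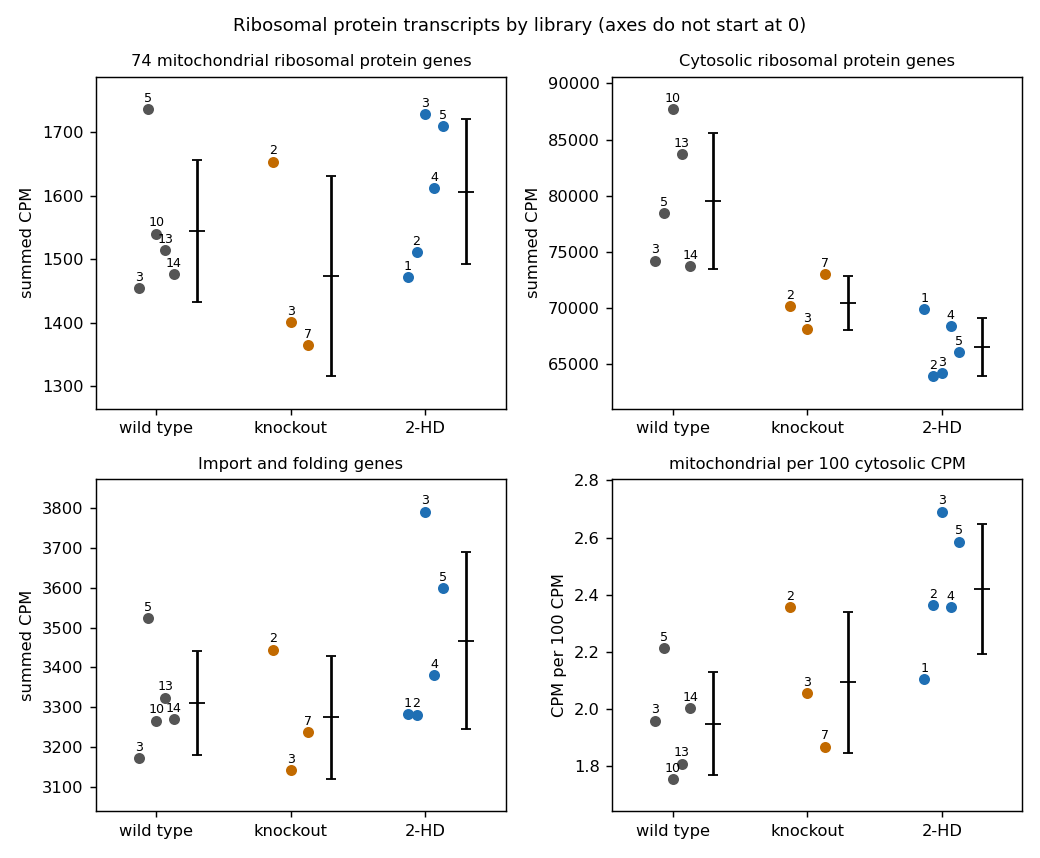
Points show, per library and with replicate numbers, the summed CPM of mitochondrial ribosomal protein, cytosolic ribosomal protein and import and folding genes, and the first sum per 100 CPM of the second; bars show the mean with SD (n = 5, 3 and 5). The mitochondrial sum overlaps between all groups (1364 to 1736 CPM), while the cytosolic sum of every 2-HD library (63929 to 69908 CPM) lies below every wild type.

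Markers of several tissues, though not of all those listed, moved with the treatment and stand beside these values. With 2-HD, 9 of 10 neural and 10 of 10 photoreceptor markers were lower, 7 of 10 skeletal muscle markers were lower and 1 higher, and 9 of 10 liver, 5 of 6 cardiac and 5 of 7 erythroid markers were higher. Summed skeletal muscle markers ranged from 35666 to 39991 CPM in wild type and from 27144 to 34029 CPM with 2-HD, and liver markers from 2965 to 4339 and from 5588 to 6601 CPM. Epidermis markers had 4 of 10 higher and 2 lower, and exocrine pancreas markers 0 of 9 higher and 0 lower. Endothelial markers had 2 of 5 higher and 0 lower, and 0 higher with RLE scaling or DESeq2. Proliferation markers had 7 of 19 higher and 0 lower. Of all genes 22.7% were higher and 19.7% lower. Regulators of mitochondrial biogenesis had 2 of 17 higher and 5 lower. With library totals alone 3 were higher and 3 lower, beside 6569 and 3228 of all 22158 genes. The 3 regulators with the smallest edgeR adjusted p all fell with 2-HD. They were myca (log2 fold change -0.51), a Myc gene, atf4b (-0.37), and gabpb1 (-0.35), a subunit of the nuclear respiratory factor GABP. Over the 17 regulators the log2 fold changes ran from -0.51 to 0.55. The part of tissue make-up in the values of the mitochondrial ribosomal proteins was not tested.

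The members are spread over the genome. The 73 matched to RefSeq symbols of assembly GRCz12tu lie on 22 chromosomes. Of these, mrpl9 and mrpl24 on chromosome 19 both overlap the gene mllt11. On the chromosome of aldh3b1 lie 3 members, with at least 206 tested genes between any of them and aldh3b1.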

How the data were processed

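The values deposited by the authors are raw read counts of each gene in 13 libraries. TRIzol extraction and BGISEQ-500 libraries are given per the labels' protocols. HISAT2 2.2.1, Trim Galore 0.6.7, featureCounts 2.0.1 and build GRCz11 are named per the submitters' processing notes. The annotation and the strand setting are not given in the sources used here. One library titled as wild type 1 is described as wild type 3 and was numbered 3.

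Tests used edgeR 4.0.16 under R 4.3.3 (filterByExpr, minimum count 10, TMM scaling, quasi-likelihood fit of 3 group means to 13 libraries, Benjamini-Hochberg adjustment over 22158 genes). The alternatives were other scalings and filters, DESeq2 1.42.0, a fit of 2 groups, a replicate block, a test against 1.2-fold and libraries left out. Steps were tested on simulated counts. Library pairs within groups differed beyond sampling noise (chi-square per degree of freedom 4.91 to 26.1). Gene names were matched to RefSeq.

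The members and lists were chosen with earlier results of these data known. Named members are those called, those with the 3 highest and 3 lowest wild-type CPM, and a list chosen by role; other lists name up to 3 called genes per comparison. No coding lengths were used, so levels are not compared between genes.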

Additional observations from a re-analysis of the deposited data

Results flagged for a closer look

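In wild type and 2-HD, the groups with 5 libraries, a library far from the others was looked for in each member, in the sums and in the ratios. Of 148 pairs of member and group, 10 (6.76%) had one, and chance gives about 1 in 20. In 6 of the 10 it was wild type replicate 5 as the highest. Among the members named, wild type replicate 5 had 42.1 CPM of mrpl12 against 32.7 to 34.3 CPM in the other wild types. For mrpl1, 2-HD replicate 1 had 6.97 CPM against 9.85 to 10.5 CPM. The small-subunit sum was 571 CPM in wild type replicate 5 against 471 to 499 CPM, and the share of all counts taken by the members was 0.169% there against 0.142% to 0.145%.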

How the results depend on the processing

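The number of members higher with 2-HD was 7 as reported and 5 to 8 with RLE or upper-quartile scaling, other count filters, or 2 groups in the fit. It was 16 with library totals alone, where 6569 of all 22158 genes were higher. The number was 4 with DESeq2, 0 against 1.2-fold and 0 with a replicate block, and 0 to 12 without single libraries. Members lower with 2-HD were 0, 1 without wild type replicate 14 and 2-HD replicate 1, and 0 to 1 without single libraries. Members lower in the knockout were 0 to 1 against wild type without single libraries. Against 2-HD they were 3 with DESeq2, where 3.96% of all genes were lower. They were 6 without wild type replicate 14 and 2-HD replicate 1, and 0 to 7 without single libraries. The causes of these shifts were not tested. The labels do not say that equal replicate numbers pair the libraries. Correlations of same-numbered deviations were -0.02 to 0.25. No differently numbered pairs were set beside them, so they cannot decide whether the libraries are paired. The replicate block therefore rests on the shared number alone. Only libraries whose number recurs in another group inform its comparisons. They are wild type replicates 3 and 5, knockout replicates 2 and 3, and 2-HD replicates 2, 3 and 5. The block is thus no check on all 13 libraries. With the block, 2 tRNA enzyme, 2 factor and 3 import genes were higher with 2-HD and 30 cytosolic ribosomal protein genes lower. Of all genes 9.81% and 9.28% were higher and lower. Over all settings 18 of the 74 members were called at least once with 2-HD, and mrpl12 and mrps9 most often, in 17 of 23 alternatives. Of the 7 called, mrps30 was called least often, in 8 alternatives. That is as often as mrpl38, which was not called as reported. Under at least 1 alternative the direction turned for 29 of the 74 members in 2-HD against wild type, for 45 in the knockout against wild type and for 29 in the knockout against 2-HD. As reported, these had log2 fold changes of at most 0.11, 0.23 and 0.14 in size. With 2-HD they include mrpl37 (-0.06 to 0.08), mrpl2 (-0.13 to 0.04) and mrpl58 (-0.14 to 0.03), and none of the 7 called. Among members whose fold change is given above, the direction turned in the knockout against wild type for mrpl21 (0.0523 with library totals alone, 0.061 with the replicate block, -0.1421 to 0.0678 without single libraries), mrpl14 (0.0472 with the replicate block), mrps30 (-6e-04 without wild type replicate 14 and 2-HD replicate 1, -0.0365 to 0.0698 without single libraries) and mrpl46 (-0.0032 to 0.1753 without single libraries). Depth did not leave any member out: the lowest count was 59.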
